A study of Oryza sativa Japonica Group with 4 samples.

Results

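The regions described here are CHG sites that lost methylation in zebularine-treated rice at places where no CG loss was listed. CHG is a cytosine followed by any base but G and then by G, so that H stands for A, C or T. The regions were chosen by their measured values: a CHG hypo-DMR (a differentially methylated region with a lower level after treatment) was kept when its level in the control (CK) was at least 0.3 and when it shared no base with any CG hypo-DMR. This rule found 661 regions among 3868 CHG hypo-DMRs and 189883 hypo-DMRs of all contexts. Since the members were selected on the zebularine and CK levels, those levels, their differences and the distances to CG losses are given as description and carry no test. A region without a listed CG loss is not a region where CG methylation was shown to be unchanged, because a CG loss that missed the cutoffs of the list, or that was not measurable, counts as none.

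The methylation levels come from BS-seq of Nipponbare (Oryza sativa, Japonica) seedling DNA, in which bisulfite turns unmethylated cytosines into uracil and the share of reads that still show C gives the level as a fraction from 0 to 1. The zebularine library was made from seedlings that were 5 days old when they were put in 80 µM zebularine for 5 days, and the zebularine CK library from seedlings kept in the solvent DMSO alone. A second pair of libraries, which the rule did not use, came from seedling DNA treated in vitro with the methyltransferase M.CviP I (8 units on 4 µg of DNA with 640 µM SAM, the methyl donor, at 37°C for 1 h) and from the corresponding M.CviP I CK DNA. Each of the 4 conditions had 1 library, so no difference has a replicate check and no treatment test is given. Whole seedlings hold many cell types, and a partial level can be a mixture of cells as well as of alleles. How many reads lie behind a level is unknown, other than that positions had at least 3 reads according to the methods. Genes, sequences and base composition at the regions were not analysed here.

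In plants, CG methylation is copied at replication by MET1, the homolog of the animal maintenance methyltransferase DNMT1. CHG methylation depends on chromomethylases such as CMT3, which bind histone H3 dimethylated at lysine 9, while the histone methyltransferases that set this mark bind methylated CHG in turn, so that both marks sustain each other mainly at transposons and repeats. CHH methylation is set anew by CMT2 and by DRM2, the enzyme of the RNA-directed pathway. Zebularine is a cytidine analog that is built into DNA and inhibits DNA methyltransferases.

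The members were mostly highly methylated in CK and lost part of that methylation. Their median CHG level was 0.623 in the zebularine library (quartiles 0.391 and 0.728) and 0.827 in the zebularine CK (quartiles 0.659 and 0.902). The difference had a median of -0.194 and quartiles of -0.256 and -0.148, and the median loss relative to the CK level was 25.3%. After zebularine 426 of the 661 members (64.4%) still had a level of at least 0.5, and only 25 (3.78%) were under 0.1. The loss was thus partial at most of these regions in this pair of libraries. A level of 0 after zebularine was listed for 2 members, on chromosomes 8 and 10, against CK levels of 0.317 and 0.369.

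Beside the members stand the 2632 CHG hypo-DMRs that also had a CK level of at least 0.3 but overlapped a CG hypo-DMR by 1 base or more, called coupled losses in what follows. The members made up 20.1% of the 3293 regions of both kinds, which is the share that the rule itself fixes. Coupled losses had a median level of 0.608 after zebularine and 0.80 in CK, and a median difference of -0.184. A loss of at least 0.2 was listed for 315 members (47.7%, 95% exact binomial interval 43.8 to 51.5%), 1042 coupled losses (39.6%) and 37.2% of all CHG hypo-DMRs. A loss of at least 0.3 was listed for 105 members (15.9%) and 271 coupled losses (10.3%). These intervals cover counting error only, and regions of 1 pair of libraries are not replicates of the treatment.

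**Figure D1:**
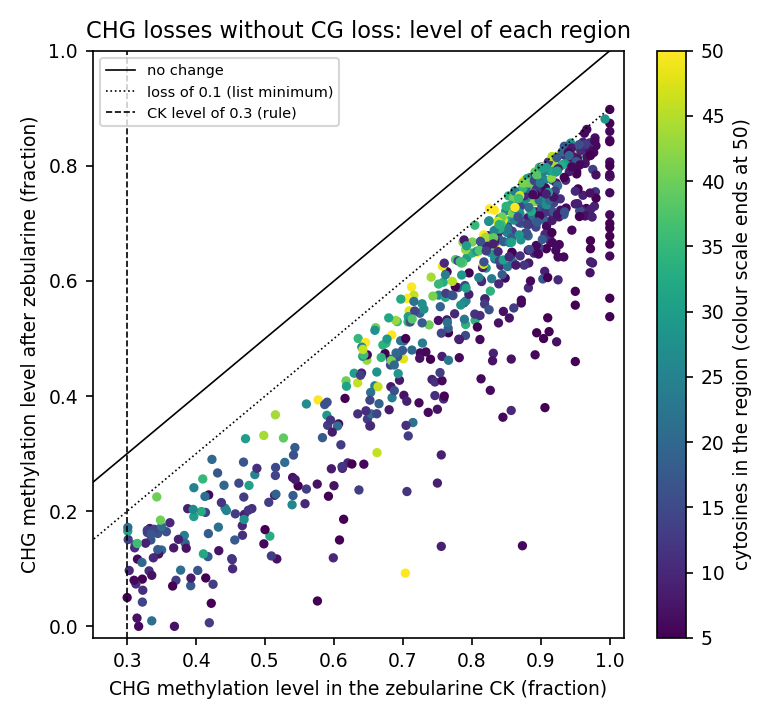
CHG methylation level of each of the 661 CHG losses without CG loss, as a fraction, after zebularine (vertical axis) and in the zebularine CK (horizontal axis), coloured by the number of cytosines. The regions lie below the dotted line of a 0.1 loss, which is the minimum of the list, and right of the dashed line at a CK level of 0.3, which the rule set. Most points are in the upper right, and 426 of them have a level of at least 0.5 after zebularine.

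The members were short and held few cytosines. Their median length was 240 bp (range 17 to 501 bp), against 462 bp in coupled losses, and the median number of CHG cytosines was 14 (range 5 to 72), against 30. Fewer than 10 cytosines were present in 213 members (32.2%) and in 219 coupled losses (8.32%), and 119 members (18.0%) against 106 coupled losses (4.03%) were shorter than 100 bp. At the other end, 175 members (26.5%) and 1442 coupled losses (54.8%) were at least 450 bp long. The share of CHG losses without CG loss was accordingly highest among short regions. It was 52.9% (119 of 225) under 100 bp, 34.5% between 100 and 199 bp, 27.8% between 200 and 299 bp, 18.5% between 300 and 399 bp and 11.4% (214 of 1875) from 400 bp upwards. A longer region has more bases that can meet a CG hypo-DMR, and this geometric part of the trend was not separated from any other.

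Length also changed how the sizes of the losses compared. Over all regions the members had the larger median loss, but within each of the 5 length classes the order was the opposite. Under 100 bp the median difference was -0.251 in members and -0.278 in coupled losses, between 100 and 199 bp it was -0.225 and -0.262, and from 400 bp upwards it was -0.152 and -0.165. Classes by the number of cytosines showed the same order in all 5, from -0.248 in members and -0.288 in coupled losses with 5 to 9 cytosines to -0.140 and -0.147 with 40 or more. With few cytosines a region can enter the list only with a large loss or with like levels among its cytosines within each library, and short regions made up a larger share of the members than of the coupled losses. The greater share of members with a loss of at least 0.2 was therefore not matched by a larger median loss among regions of like size. Among regions of like CK level the order was mixed. Members had the larger median loss in 5 of the 7 CK classes, among them 0.5 to 0.6 (-0.286 in members and -0.227 in coupled losses) and 0.7 to 0.8 (-0.210 and -0.191), but not between 0.3 and 0.4 (-0.211 and -0.223) or between 0.8 and 0.9 (-0.159 and -0.160). Length was not held constant within these CK classes. Among regions of at least 400 bp, members had the larger median loss only at CK levels of 0.4 to 0.5 (-0.2187 and -0.1936) and of 0.9 or more (-0.1296 and -0.1255). In the other CK classes coupled losses did, as at 0.7 to 0.8 (-0.1692 and -0.176). Under 200 bp members had the larger one only at 0.4 to 0.5 (-0.3028 and -0.2595, with 12 members) and 0.5 to 0.6 (-0.297 and -0.296). The order in the CK classes thus changed with length.

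**Figure D2:**
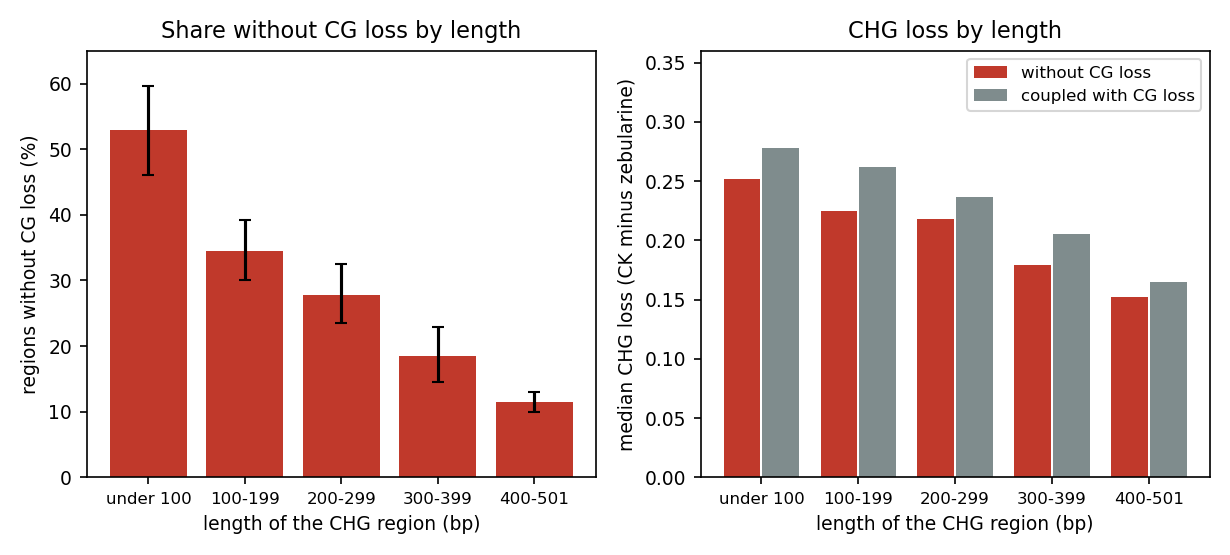
Left, share of CHG hypo-DMRs with a CK level of at least 0.3 that had no CG loss, in percent, by region length in bp, with 95% exact binomial intervals that cover counting error only. Right, median CHG loss (CK minus zebularine level) by length in regions without CG loss and in regions coupled with CG loss, where the bars of regions without CG loss are the lower ones in each of the 5 classes.

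The loss differed with the starting level of a member. The 169 members with a CK level of at least 0.9 had a median level of 0.762 after zebularine and lost 18.3% of their CK level, and the 201 members between 0.8 and 0.9 had a median of 0.686 and lost 19.1%. The 53 members between 0.3 and 0.4 in CK had a median of only 0.136 after zebularine, a relative loss of 61.3%. In between, the absolute loss was greatest for the 35 members that started between 0.5 and 0.6, with a median difference of -0.286. Highly methylated members thus kept most of their methylation and weakly methylated members kept the smaller portion of theirs. Coupled losses had the same pattern, with a median of 0.775 after zebularine and a relative loss of 16.3% at CK levels of at least 0.9. Between 0.3 and 0.4 in CK they had 0.127 and 64.05%. Part of this pattern follows from the list itself, since a loss of at least 0.1 is a small portion of a high level and a large portion of a low one.

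Both ends of the CK range held a larger share of the members than of the coupled losses. A CK level of at least 0.9 was found in 169 members (25.6%, interval 22.3 to 29.1%) and in 315 coupled losses (11.97%), and a level under 0.5 in 94 members (14.2%) and 225 coupled losses (8.55%). The share without CG loss was 33.3% for CK levels between 0.3 and 0.4, 13.3% between 0.7 and 0.8, and 34.9% at 0.9 or more. The same U shape was present in regions of at least 400 bp, with 23.2%, 6.28% and 20.0% in those 3 classes. Members with a CK level of at least 0.9 were small, with a median of 9 cytosines and 137 bp, and 20 of them had a CK level of 1, each with fewer than 10 cytosines. The count of reads behind a level of 1 is unknown, and at the minimum depth such a level rests on few reads.

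The deposited t statistic gives the standard error (SE) of a difference across the cytosines of a region, which reflects the spread of levels among the cytosines within each of the 2 libraries and not how seedlings varied. Its median was 0.0562 in members and 0.0577 in coupled losses. The SD between the cytosines of a region was smaller in members, with a median of 0.162 against 0.220 in coupled losses. It was also smaller in every length class, from 0.115 and 0.151 under 100 bp to 0.188 and 0.229 from 400 bp upwards. The cytosines within a listed member thus had more even levels than those within a listed coupled loss of similar length. This SD was derived from the difference and the t statistic, values that also decided which regions were listed. In each length class members had the smaller median loss, and a smaller loss needs more even levels or more cytosines to be listed. The part of this selection in the order was not tested.

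The member with the largest loss was a stretch of 17 bp with 6 CHG cytosines at chr4:15430433-15430449 (MSU7.0), where the level was 0.140 after zebularine and 0.873 in CK, a difference of -0.733 ± 0.0851 (SE across cytosines). It lay 157 bp from the nearest CG hypo-DMR. A coupled CHG loss at chr4:15430086-15430286 on the same side had 0.111 after zebularine and 0.504 in CK. The next largest loss, at chr10:5690800-5691004, had 9 cytosines and levels of 0.139 after zebularine and 0.756 in CK. These regions lost 84.0% and 81.6% of their CK level, whereas the median member kept most of its level. The fourth and the fifth largest losses, at chr11:4915918-4916125 (0.0440 after zebularine and 0.576 in CK) and chr12:5642187-5642235 (0.380 and 0.906), held 5 cytosines each, the smallest number in the list.

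The third largest loss had the smallest deposited p-value of all members and was one of the long ones. It covered 491 bp with 54 cytosines at chr8:18925284-18925774, with a level of 0.0924 after zebularine and 0.704 in CK, a difference of -0.611 ± 0.0293. It was the fifth of 6 CHG hypo-DMRs in a row within the stretch looked at around it. Whether the row went on before the first of these regions was not examined. The zebularine levels along this row were 0.521, 0.434, 0.403 and 0.268 in the first 4 regions, then 0.0924 in the member and 0.363 in the last region. The CK levels at the same regions were 0.644, 0.688, 0.662, 0.653, 0.704 and 0.689. The CK was thus nearly even over the row, and the zebularine level went down towards the member and was higher again after it. The other 5 regions of the row shared bases with CG hypo-DMRs, and the CG losses on both sides of the member ended at position 18925070 and began again at 18925858. Those adjoining CG regions still had levels of 0.792 and 0.762 after zebularine, against 0.95 and 0.961 in CK.

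The other members among the 5 smallest p-values differed in level. At chr11:13861133-13861586 the level was 0.0095 after zebularine and 0.336 in CK over 21 cytosines, and at chr6:14292641-14293065 it was 0.0706 and 0.392 over 18 cytosines. These regions were weakly methylated in CK and had nearly no CHG methylation after zebularine. At chr6:26014881-26015017, in contrast, 16 cytosines had a level of 0.722 after zebularine and 0.956 in CK, a difference of -0.234 ± 0.0236 at a highly methylated region. The fifth, at chr3:4508694-4508806, held 30 cytosines in 113 bp and had levels of 0.191 after zebularine and 0.397 in CK.

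The members with the most cytosines had moderate losses. The region at chr6:31078731-31079202, with 72 cytosines, had a level of 0.570 after zebularine and 0.706 in CK. With 71 cytosines each, chr9:22892762-22893212 had 0.506 and 0.684, and chr6:6946200-6946688 had 0.775 and 0.876. The last of these was just above the minimum loss of the list, with a difference of -0.101 ± 0.0377. Around the CK threshold of the rule, the 2 members just inside it were chr1:18623123-18623168 (0.05 after zebularine and 0.3 in CK) and chr6:24777986-24778408 (0.165 and 0.301). The 2 regions just outside it were chr3:22553889-22554105 (0.128 and 0.2996) and chr4:29769862-29770219 (0.130 and 0.295), so no gap in the levels separates members from regions below the threshold. A threshold of 0.2 in place of 0.3 would give 737 members.

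Most members had a CG loss within 1 kb although, by the rule, none shared a base with one. The median distance to the nearest CG hypo-DMR was 474 bp (quartiles 176 and 1200 bp), 467 members (70.6%) had one within 1 kb and 648 (98.0%) within 5 kb. On both sides within 1 kb a CG loss was listed for 178 members (26.9%). At the other extreme, 194 members (29.4%) had no CG hypo-DMR within 1 kb. As chromosome averages, CG hypo-DMRs were dense, with between 395 per Mb on chromosome 3 and 559 per Mb on chromosome 12. How near they lie to positions in general was not computed, so these distances are not shown to be particular to members. The nearest CG regions were ordinary in level, with medians of 0.790 after zebularine and 0.953 in CK, beside 0.790 and 0.951 over all 182125 CG hypo-DMRs. Their median difference was -0.160, beside -0.158 over all. They were smaller, with medians of 304 bp and 20 cytosines, beside 365 bp and 25 cytosines over all.

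The neighbourhood of the members held fewer CG losses than that of coupled losses, an order that the rule itself favours. Within 1 kb of the edges a median of 14.0% of the bases lay under CG hypo-DMRs for members and 33.9% for coupled losses. Within 5 kb it was 17.9% and 27.1%. As a mean profile, CG hypo-DMRs covered 3.35% of the first 100 bp beside members and 10.1% of the next 100 bp, where the rule itself keeps CG regions away. From 300 bp outwards the profile was nearly flat, between 18.5 and 21.7%, and was 20.1% at 4500 to 5000 bp. Coupled losses had 46.5% in the first 100 bp and 24.7% at 4500 to 5000 bp. By the rule each of them overlapped a CG hypo-DMR, which can reach past its edge and raise the values nearby. The part of the rule in the contrast farther out was not tested. Over the 12 chromosomes, 16.2% of the length lay under CG hypo-DMRs, so the surroundings of members were slightly above that value farther out than 300 bp.

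**Figure D3:**
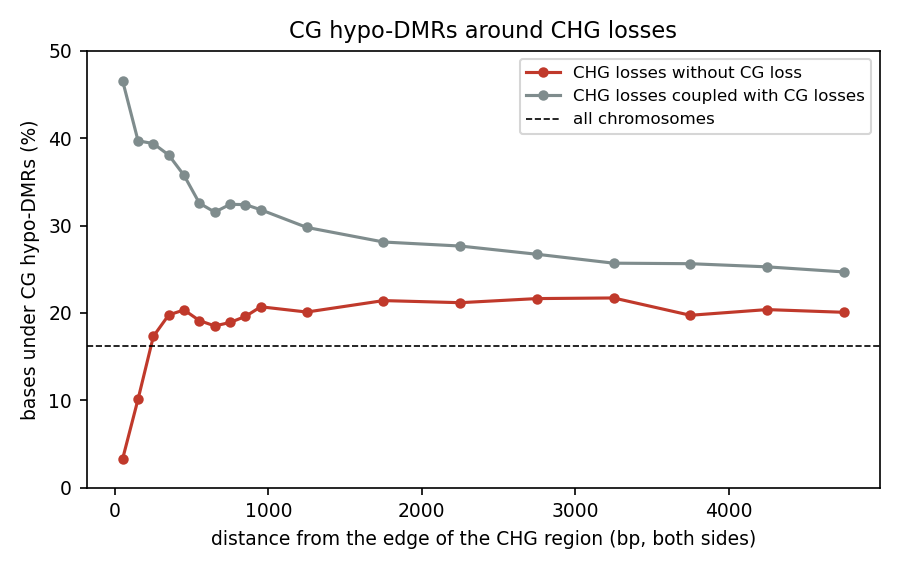
Bases under CG hypo-DMRs, in percent, by distance in bp from the edges of CHG losses without CG loss (red) and of CHG losses coupled with CG losses (grey), both sides together, with the share over all chromosomes as a dashed line. The red line starts at 3.35%, where the rule excludes CG regions, and levels off near 20%. The grey line declines from 46.5%, beside regions that the rule requires to overlap a CG region, to 24.7%.

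The members farthest from any CG hypo-DMR were unlike each other in level. At chr5:22676170-22676274, 13021 bp from the nearest CG loss, 6 cytosines had a level of 0.823 after zebularine and 0.977 in CK, a difference of -0.153 ± 0.0481. At chr6:23191867-23192026, 9786 bp away, the level was 0.136 after zebularine and 0.311 in CK. At chr6:28438800-28439044, 9577 bp away, it was 0.641 after zebularine and 0.833 in CK over 28 cytosines. One was thus nearly saturated in CK, another close to the threshold of the rule and the other close to the median member. The nearest members of all, 5 in number, lay directly against a CG hypo-DMR without sharing a base.

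Members were spread over all 12 chromosomes at 1.77 per Mb and together covered 181 kb, or 0.0484% of the chromosome length. Their density was lowest on chromosome 2 (1.34 per Mb) and highest on chromosome 10 (2.46 per Mb), with chromosomes 5 and 6 at 2.44 and 2.40 per Mb. All CHG hypo-DMRs lay at 8.57 per Mb on chromosome 2 and at 11.98, 12.65 and 12.96 per Mb on chromosomes 10, 5 and 6. As a share of the CHG hypo-DMRs with a CK level of at least 0.3, members ranged between 16.5% on chromosome 7 (42 of 254, interval 12.2 to 21.7%) and 24.3% on chromosome 3 (61 of 251, interval 19.1 to 30.1%). Both are extremes picked out of 12 chromosomes, and their intervals overlap. The order of chromosomes was not tested. Neighbouring members were a median of 344 kb apart. Only 49 of 649 gaps were 10 kb or shorter, and 569 members had no other member within 10 kb of them. With CHG hypo-DMRs of any kind counted, 210 members (31.8%) had another within 10 kb. The share was 30.9% for coupled losses and 30.0% for all CHG hypo-DMRs, so members were not more isolated than other CHG losses.

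A few members stood together. The densest group held 4 members within chr4:20473403-20476649, with levels after zebularine of 0.464, 0.282, 0.234 and 0.237, against 0.740, 0.643, 0.706 and 0.636 in CK. The 3 members with the lower zebularine levels held 6, 12 and 13 cytosines, and coupled CHG losses lay between the members and beyond them. The next group, of 3 members at chr3:9816418-9817328, had 0.331, 0.249 and 0.131 after zebularine, against 0.708, 0.750 and 0.433 in CK, and the nearest CG loss was 1891 bp away. Another, of 3 members at chr3:19658872-19660362, had 0.492, 0.5 and 0.631 after zebularine, against 0.675, 0.635 and 0.785 in CK, with 35, 35 and 36 cytosines. The groups on chromosome 4 and at chr3:9816418-9817328 lost more than the median member, and the one at chr3:19658872-19660362 lost less. Groups of 3 members numbered 4 in all, and those described were taken by position. The other groups of 3, at chr5:8952885-8954349 and chr5:14522252-14524757, had median differences of -0.306 and -0.165. Neighbouring members of a group can belong to 1 methylated stretch that the caller divided, since no listed region was longer than 501 bp.

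CHG losses at members were rarely joined by CHH losses. A CHH hypo-DMR shared a base with 13 members (1.97%, interval 1.05 to 3.34%), with 82 coupled losses (3.12%, interval 2.49 to 3.85%) and with 3.96% of all CHG hypo-DMRs, among which those with a CK level under 0.3 had the highest share (10.1%). The intervals of members and coupled losses overlap. The pair of examples that follows had the largest CHH loss relative to CK and the largest absolute CHH loss, and both were picked after their values were seen. At chr6:11061258-11061510 the CHG level was 0.119 after zebularine and 0.599 in CK, and the CHH level of the region that overlaps its edge was 0.0155 and 0.217. That CHH region shared 26 bp with this member and 47 bp with the adjoining member at chr6:11060756-11061243, so both are among the 13. At chr7:11834842-11834956 the CHG level was 0.602 after zebularine and 0.925 in CK, and the CHH level over 6 cytosines was 0.137 and 0.492. At these places both non-CG contexts were lower after zebularine while no CG hypo-DMR was listed over the CHG region. Most members, 648 in number, had no CHH hypo-DMR on them, but CHH levels were low in general, and a CHH region needs a loss of 0.1 to be listed.

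The M.CviP I libraries give CHG, CG and CHH levels at some of the same places, from DNA that zebularine had not touched. M.CviP I is known to methylate cytosines that follow a G (GpC sites), and the methods describe it as acting on CG sites. The study's results name it a GpC enzyme that seems to act on CHG and CHH sites as well. The list held only gains after M.CviP I, so a level is known at a member only where a hyper-DMR of the context shared a base with it. A CHG hyper-DMR did so at 105 members (15.9%, interval 13.2 to 18.9%) and 457 coupled losses (17.4%, interval 15.9 to 18.9%). Over all CHG hypo-DMRs the share was 22.0%, to which the regions with a CK level under 0.3 contributed 288 of 575 (50.1%). The members and coupled losses did not differ beyond their counting intervals in this respect.

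At these 105 members the median CHG level was 0.770 in M.CviP I-treated DNA and 0.459 in the M.CviP I CK (quartiles of the CK 0.266 and 0.614). The coupled losses had medians of 0.836 in M.CviP I-treated DNA and 0.580 in the M.CviP I CK. In the M.CviP I CK, 74 of the 105 members had a level of at least 0.3, the threshold that the rule had applied to the other control, and 31 had a lower one. Among coupled losses 384 of 457 had at least 0.3 and 73 had less. The CHG level in this control is known for these 105 of the 661 members only. The M.CviP I CK level was below the zebularine CK level in 99 of the 105 members (median difference -0.175) and in 419 of 457 coupled losses (median difference -0.0932). Members were chosen for a high level in the zebularine CK, and a hyper-DMR needs room for a gain in the M.CviP I CK. Both selections favour this order, the regions compared only overlap, and the controls may also differ in seedling age: the general plant material was older than the zebularine and DMSO seedlings, and the methods do not say of which material the M.CviP I DNA was made. The part of each was not tested.

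CHH hyper-DMRs were nearly everywhere. They shared a base with 618 members (93.5%, interval 91.3 to 95.2%), with 2490 coupled losses (94.6%) and with 94.4% of all CHG hypo-DMRs. At members the median CHH level was 0.452 in M.CviP I-treated DNA and 0.0466 in the M.CviP I CK, and at coupled losses it was 0.482 and 0.0565. The CHH level in the M.CviP I CK was under 0.1 at 521 of the 618 members (84.3%) and 2128 of the 2490 coupled losses (85.5%). Only 22 members (3.56%) had a CHH level of at least 0.2 there. Most members with such a level were thus regions of low CHH methylation in that control, beside their higher CHG level in the zebularine CK. The same held for coupled losses. These levels are known only from hyper-DMRs, which need room for a gain, and this favours low levels in that control. By length, the CHH median in the M.CviP I CK was lower in members than in coupled losses in each of the 5 classes, from 0.0535 and 0.0577 under 100 bp to 0.0416 and 0.0561 from 400 bp upwards.

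**Figure D4:**
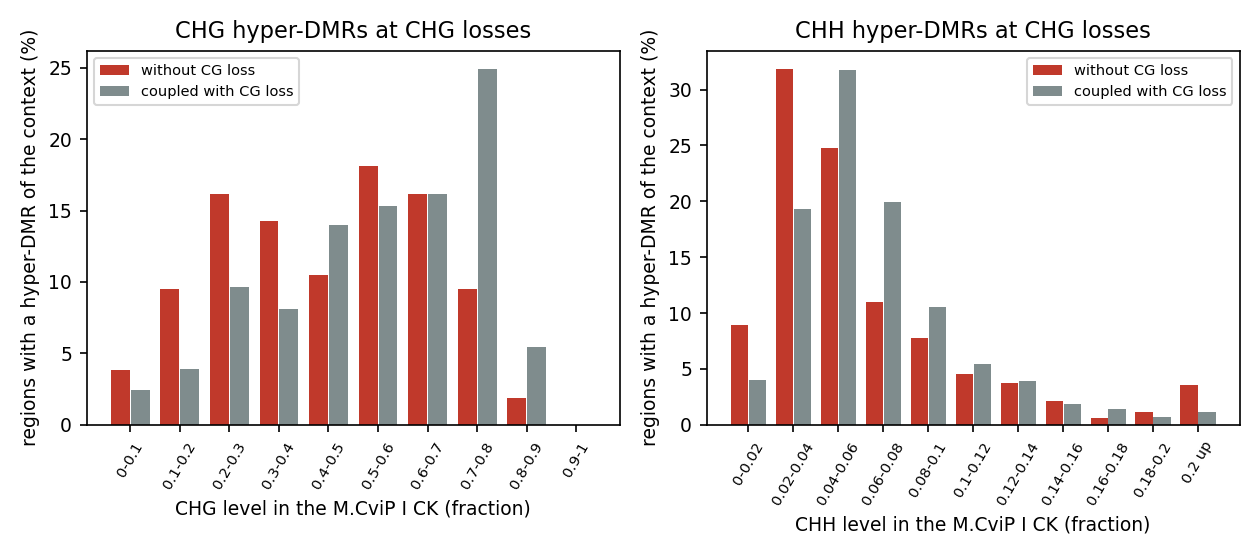
CHG level (left) and CHH level (right) in the M.CviP I CK, as a fraction, at CHG losses without CG loss (red) and coupled with CG loss (grey), as percent of the regions that shared a base with a hyper-DMR of the context (105 and 457 regions for CHG, 618 and 2490 for CHH). The CHG levels spread over the whole range below 0.9, and most CHH levels are under 0.1.

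CG gains at members were few. A CG hyper-DMR shared a base with 6 members (0.908%, interval 0.334 to 1.97%), 21 coupled losses (0.798%) and 2.56% of all CHG hypo-DMRs, with 72 of the 575 regions below a CK level of 0.3 (12.5%) making up most of that share. At the 6 members the CG level was 0.820, 0.752, 0.553, 0.761, 0.741 and 0.611 in M.CviP I-treated DNA, against 0.364, 0.376, 0.248, 0.332, 0.298 and 0.0810 in the M.CviP I CK. All 6 regions had a CG level under 0.4 in that control. At the 21 coupled losses the median CG level there was 0.411 (quartiles 0.213 and 0.592), so low levels were not particular to members. A hyper-DMR needs room for a gain, which favours low levels in the M.CviP I CK. The part of these levels in the missing CG loss was not tested. The member at chr1:28135601-28135956 among the 6 had a CHG level of 0.736 after zebularine and 0.912 in the zebularine CK, but shared only 18 bp with its CG region. The member at chr10:21063696-21063810, with the lowest CG level of the 6, lay wholly inside its CG region and had a CHG level of 0.172 after zebularine and 0.301 in the zebularine CK. Of these 6 members, 4 were 2953 bp or more from any CG hypo-DMR. For the remaining members the list holds no CG gain, and their CG level in the M.CviP I CK is unknown.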

How the data were processed

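BS-seq libraries of 4 conditions, 1 each, were represented by the authors' 2 lists of DMRs, 1 of losses after zebularine and 1 of gains in M.CviP I-treated DNA. Per the methods, reads were trimmed by the authors (Fastp), aligned with Bismark to MSU7.0, restricted to positions of at least 3 reads, and regions were called with CGmapTools at a p-value under 0.01 and a difference of at least 0.1. The authors deposited methylation levels as a fraction, the mean over the cytosines of a region. The deposited p-value is unadjusted and the t statistic, a deposited score, belongs to the same test, both across cytosines of 1 library pair. Neither was used as a test here: t gave the SE across cytosines, and the p-value only ranked regions and set an alternative cutoff. The lists have no header, so the treated and CK columns were identified from the direction of each list. The deposited number of cytosines was used as given.

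Coordinates were read as closed intervals, differences were recomputed as treated minus CK, and overlaps were counted from 1 shared base. Where several hyper-DMRs met 1 member, their levels were averaged by cytosines. Chromosome ends were the largest region ends, 373 Mb in all. Shares have 95% Clopper-Pearson intervals. Named regions were the 5 largest losses, the 5 smallest p-values, the 3 members farthest from a CG hypo-DMR, the 3 with the most cytosines, the 3 groups with the most members within 10 kb (ties among 4 groups of 3 by position), and 2 regions on each side of the CK threshold. The members and lists were chosen with earlier results of these data known. Overlaps and distances were tested on simulated data, with 0 errors over 400 regions. Python 3.11.15, numpy 2.4.6, pandas 2.3.3, scipy 1.17.1 and matplotlib 3.10.9 were used. Alternatives were other CK thresholds, distances and overlaps for CG losses, cutoffs, merging, means and another choice of hyper-DMR. Sequences and gene positions need the MSU7.0 genome and were not analysed here.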

Additional observations from a re-analysis of the deposited data

How the results depend on the processing

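No paired analysis was possible because only 1 library represents each condition. Of 51 alternatives, 28 stayed close to the value given and 23 moved it. The number of members depended on what counts as a CG loss and on the cutoffs. It was 321 with no CG hypo-DMR within 500 bp and 194 within 1000 bp, against 1034 when fewer than 50% of the bases had to lie under CG hypo-DMRs and 2200 when only CG losses of at least 0.2 counted. It was 173 at a p-value under 0.001 and 315 at a loss of at least 0.2. With at least 10 cytosines it was 448, which was still taken as close, so the band for counts was wide. CK thresholds of 0.2, 0.4 and 0.5 gave 737, 608 and 567. The median difference of -0.194 was -0.214 as a mean, -0.234 at a p-value under 0.001, -0.176 with at least 10 cytosines and -0.182 with no CG hypo-DMR within 500 bp. The median levels moved as well. In CK, 0.827 became 0.760 as a mean, 0.757 weighted by cytosines and 0.784 at a p-value under 0.001. After zebularine, 0.623 became 0.5465, 0.570 and 0.492 in the same order. With no CG hypo-DMR within 500 bp both stayed close (0.83 and 0.632). With 50% of a member covered, 13.2% had CHG and 88.5% CHH hyper-DMRs. At a loss of at least 0.2, the CHG, CG and CHH hyper-DMR shares were 21.3%, 0.317% and 90.5%, and with at least 10 cytosines the CHH share was 97.1%. Chromosome lengths of the reference and GC content were not run. The unknown depth limits the levels of small regions.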
